A study of Mus musculus with 2 samples.

Results

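The cells described here were G2 and M cells low in Dlx, dividing cells that carried messenger RNA of late cell cycle genes and little or none of the Dlx-side genes of the interneuron lineage. A member had at least 8 UMIs (unique molecular identifiers, each counting 1 captured RNA molecule) summed over Ube2c, Cenpf, Ccnb1 and Top2a, at most 1 UMI summed over Dlx1, Dlx2, Dlx5, Dlx6os1, Dcx and Gad2, and 0 UMIs of Sox10, Gpr17, Pdgfra and Bcas1, genes of oligodendrocyte precursors. Of 13278 kept cells, 576 were members, which is 4.34% (exact Clopper-Pearson 95% interval, 3.998 to 4.698%). Kept cells were those of 14685 barcodes with at least 500 detected genes and at most 10% mitochondrial UMIs. These sums chose the members, so the levels of the genes in them are given as a description.

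The cells were C57/Bl6J mouse neural stem cells grown in culture from the postnatal subventricular zone, a neurogenic region beside the lateral ventricle. One library came from cells given DMSO, the vehicle control, and 1 from cells given 1 µM of the oxysterol 20HC, each sequenced 3 days after the mitogens EGF and FGF had been withdrawn, with the 10x Chromium Single Cell 3′ kit, version 1. The series concerns an oxysterol and Gli2-dependent oligodendrocyte formation. Barcodes end in 1 or 2 and nothing ties either number to a treatment, so the pooled matrix was treated as 1 sample, the 2 barcode sets are shown side by side with no condition, no control was compared with 20HC, and no p-value was computed.

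In G2 and M, cells carry out chromosome condensation, spindle assembly and chromosome segregation. Cyclin B with Cdk1 starts mitosis, Plk1 and the Aurora kinases drive it, the kinetochore attaches chromosomes to microtubules, and the anaphase-promoting complex with Cdc20 ends it by destroying cyclin B and securin. Many of the genes involved share a promoter element, the cell cycle genes homology region (CHR), through which the DREAM and B-Myb complexes act. In the postnatal subventricular zone, stem cells give rise to rapidly dividing intermediate progenitors, which express Egfr and later Dlx genes, and then to neuroblasts, which express Dcx, Tubb3 and Sox11; the same region also yields oligodendrocyte precursors and astrocytes.

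Barcode set 1 held 419 members of 9869 kept cells (4.25%) and set 2 held 157 of 3409 (4.61%), so their shares lay within each other's counting error. Members had a median of 3660.5 UMIs (783 to 12425) and 1597.5 genes, against 2831 UMIs in the other kept cells. Ordered by depth in 10 equal parts, kept cells were members in 1.13% of the shallowest part and 11.7% of the deepest; the threshold is a raw number of UMIs. With a mitotic sum of 20 or more per 10000 UMIs in its place, an alternative chosen after seeing the data, 705 cells (5.31%) qualified. In all, 48 barcode sequences occurred in both sets, and none of them belonged to a member in both sets at once. Scrublet called 53 of 576 members doublets, 39 of 419 in set 1 and 14 of 157 in set 2, and they were kept. Among all kept cells it called 397 of 9869 in set 1 (4.02%) and 54 of 3409 in set 2 (1.58%). Members were thus called doublets more often than kept cells in both sets.

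Neither threshold fell at a gap in the counts. Among low-Dlx cells without precursor UMIs, 72 had a mitotic sum of 7, just outside the threshold, and 60 had a sum of 8, just inside it. The members' median sum was 15, with a highest of 63. On the Dlx side, 318 members had a sum of 0 and 258 a sum of 1, while 248 otherwise equal cells had a sum of 2. A further 59 mitotic low-Dlx cells were left out by exactly 1 UMI of a precursor gene.

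**Figure D1:**
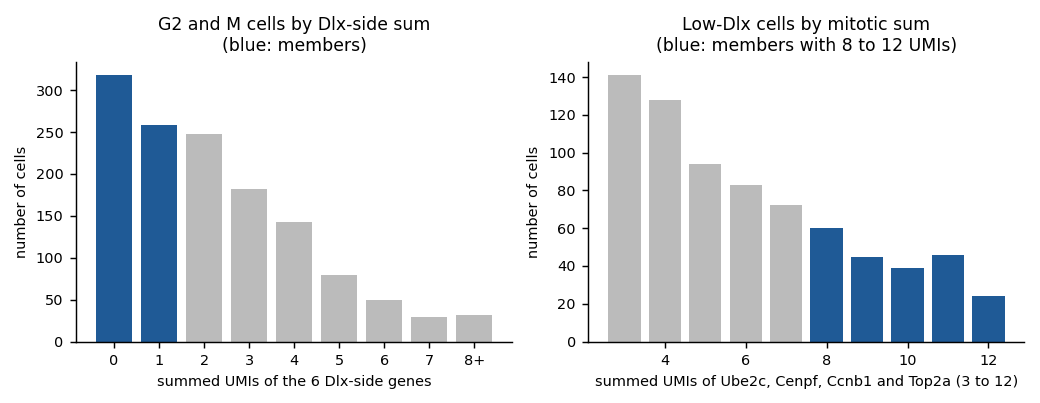
Number of cells at each value of the 2 sums that chose the members. On the left, G2 and M cells without precursor UMIs by the summed UMIs of the 6 Dlx-side genes; on the right, low-Dlx cells by the summed UMIs of the 4 mitotic genes, from 3 to 12. Blue bars are members, and the bars on either side of each threshold (258 and 248 cells; 72 and 60 cells) are close in height.

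Of the 5 genes given as markers of these cells, 3 belong to the rule. Ube2c, the ubiquitin-conjugating enzyme of the anaphase-promoting complex, stood at 1554 CPM (UMIs per 1000000 UMIs of the group, with a Poisson 95% interval of 1502 to 1607). Cenpf, a kinetochore-associated protein, stood at 1349 CPM and Ccnb1, cyclin B1, at 643 CPM. Top2a, the topoisomerase that untangles sister chromosomes also in the mitotic sum, stood at 1376 CPM.

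The other 2 markers took no part in the choice. Plk1, the mitotic polo-like kinase, had 230 CPM in barcode set 1 and 264 CPM in set 2, and Nusap1, which bundles spindle microtubules, had 428 and 421 CPM. Plk1 UMIs were seen in 52.4% of members (35.8% after each cell was thinned to 2000 UMIs) and Nusap1 UMIs in 71.9% (50.6%). In non-mitotic cells with at least 5 Dlx-side UMIs, which should lack both, the thinned shares were 1.61% for each (62 cells; median depth before thinning 2212 UMIs over all 93 such cells, against 3660.5 in the members). In GRCm38 (GENCODE M21) the protein-coding gene Plk1 lies at chr7:122159439-122169873, plus strand, and Nusap1 at chr2:119618298-119651244, plus strand. Those cells were chosen to have 0 UMIs of the 4 mitotic genes, so their low shares follow in part from the rule, and the 2 markers are a description of the members, not separate support for their name.

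For comparison, 3 groups of kept cells were cut from the same counts: 762 G2 and M cells with a Dlx-side sum of 2 or more, 123 low-Dlx S-phase cells (Pcna, Mcm5, Mcm6 and Rrm2 sum of at least 5 and mitotic sum of at most 1), and 6080 low-Dlx cells with 0 UMIs of both sums. All 3 lacked precursor UMIs. A gene was called higher or lower when its CPM differed at least 1.5-fold, each barcode set on its own pointed the same way, the counting intervals did not overlap, and it had at least 30 UMIs; the 18 genes that define the groups were left out. The groups were chosen on expression and come from 1 pooled sample, so these calls describe the cells and test nothing, and the intervals cover counting error only.

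Against the low-Dlx S-phase cells, 244 of 6800 genes were called higher in the members (3.59%) and 209 lower (3.07%). All 14 measured genes of the late G2/M list were higher, with a median log2 ratio of 2.79, as were 26 of 30 genes of spindle and cytokinesis (median 2.25), 21 of 25 kinetochore genes (1.66), 13 of 15 early G2/M genes (1.36) and 14 of 21 genes of the mitotic kinases and their partners (1.77). The median over all genes was 0.01. On a list of chromosome structure 9 of 22 were higher, and on mitotic exit 6 of 13. The rule that separates the phases fixes much of this.

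Among late G2/M genes, Birc5, survivin of the chromosomal passenger complex, had 840 CPM in set 1 and 921 CPM in set 2 of the members, against 174 and 170 CPM in S-phase cells. Cenpa, the histone H3 variant that marks centromeres, had 785 and 891 CPM against 102 and 85.1 CPM. Cdc20, the activator of the anaphase-promoting complex, had 624 and 707 CPM against 72.0 and 72.9 CPM. In each of these the 2 sets of members lay far above both sets of S-phase cells. Plk1 was at 239 CPM over all members and at 11.5 CPM over all S-phase cells, a level that rested on 4 UMIs.

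Genes of the other cycle lists with the most UMIs in the members encode proteins of chromatin, microtubules and kinase complexes. Hmgb2, a chromatin protein of dividing cells, had 3839 and 4102 CPM in the 2 sets against 1890 and 1349 CPM in S-phase cells. H2afz, a histone H2A variant, and Hmgb1 were not called (5933 against 4071 CPM and 2735 against 2339 CPM over both sets). Smc4, a condensin subunit, stood at 869 against 407 CPM and was called higher.

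Of the kinase partners, Cks1b, which binds cyclin-dependent kinases, was called higher at 689 against 442 CPM, and Pbk, a mitotic kinase, at 661 against 191 CPM. Tubb5, a beta-tubulin, and Stmn1, which destabilises microtubules and is also on the neuroblast list, were not called (3816 against 3009 CPM and 1812 against 1825 CPM). Anapc11, the catalytic subunit of the anaphase-promoting complex, was nearly level over all groups, at 447 CPM in the members and 439, 439 and 365 CPM in the Dlx-positive, S-phase and no-cycle groups.

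The largest ratios to S-phase cells belonged to Tuba1c (an alpha-tubulin), Plk1, Kif23 and Kif20a (kinesins of the central spindle), Hmmr, Bub1b, Acta2, Cdc25c, Cenpe and Sgol2a. Tuba1c had 185 CPM in the members against 8.66 CPM, and Kif23 140 CPM against 5.78 CPM, each from 3 or fewer UMIs in the S-phase cells. Acta2, smooth muscle actin, is no cycle gene; its UMIs lay in a few cells, described further on.

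Genes of DNA replication went the other way: 0 of 30 measured genes were higher and 20 were lower than in S-phase cells (median log2 ratio -0.85). Mcm3, a subunit of the replicative helicase, had 94.6 and 99.97 CPM in the 2 sets of members against 360 and 292 CPM. Hells, a chromatin remodeller of replicating cells, had 124 and 67.8 CPM against 398 and 255 CPM. Not every gene of the list was lower: Dut, which removes dUTP, had 371 against 344 CPM over both sets, and Rrm1, the large subunit of ribonucleotide reductase, 340 against 289 CPM. The members held more replication RNA than cells without cycle UMIs, where 30 of 31 genes were lower than in the members and Mcm3 stood at 7.66 CPM. Of all genes, 3.07% were called lower than in S-phase cells and 14.3% higher than in cells without cycle UMIs. S-phase cells were chosen for their UMIs of S-phase genes, and cells without cycle UMIs for having none of them. The choice of the groups therefore fixes much of both replication contrasts. After Mcm3 and Hells, the lowest ratios to S-phase cells were those of Tubb3, Apex1, Rfc3, Polr3k, Rsl1d1, Pak3, Snrpa and Ccnd2.

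**Figure D2:**
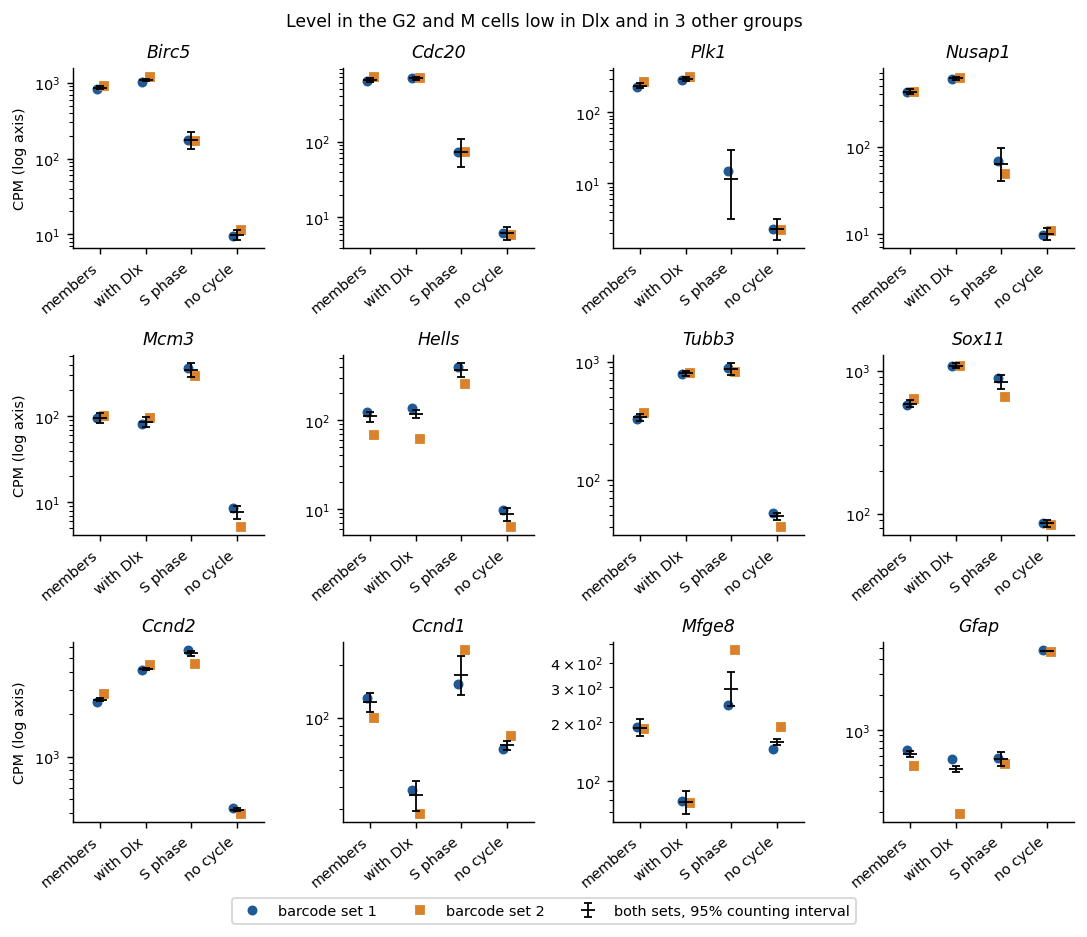
Level of 12 genes in the members and the 3 comparison groups, in CPM on log axes that differ between panels. Circles and squares are barcode sets 1 and 2, black bars the value over both sets with its 95% counting interval; Plk1 of S-phase cells in set 2 is at 0 and not drawn. Birc5, Cdc20, Plk1 and Nusap1 are at least 1.5-fold above S-phase cells in the members, Tubb3 and Ccnd2 lie between cells without cycle UMIs and both other groups, and Gfap is low in all groups but the last.

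The promoters of these genes were then compared. Windows of 300 bases (250 before to 50 after the start; RefSeq, GRCm38.p6) were searched for the CHR core TTTGAA on both strands. It was present in 17.9% of all 32851 windows and in 12.9% of 6374 windows of genes with 30 or more UMIs in the members. Among the lists it was present in 11 of 13 windows of early G2/M genes (84.6%), 9 of 15 of late G2/M genes (60.0%), 23 of 30 of spindle genes (76.7%) and 11 of 22 of kinetochore genes. It was less frequent for mitotic kinases (6 of 16, 37.5%) and mitotic exit (4 of 15, 26.7%), and 11 of 21 chromosome structure windows held it. Replication genes had it in 3 of 33 (9.09%), neuroblast genes in 6 of 20 (30%) and astrocyte genes in 3 of 23. A CCAAT box, searched on both strands as CCAAT, was present in 37.4% of all windows and in 12 of 15 late G2/M windows. It was also present in 17 of 33 replication windows (51.5%), 12 of 20 neuroblast windows (60%) and 9 of 23 astrocyte windows (39.1%). These matches are letters in a window and do not show that a factor was bound.

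Of the kinetochore and late G2/M genes outside the rule that hold the element, the 4 with the most UMIs in the members are shown so that its place can be seen. Birc5 had more UMIs (1875) than all 4, and Pttg1 (1663) more than 3 of them, but neither has TTTGAA in its window. Each line gives the 150 bases from 120 before to 30 after the RefSeq start, 5′ to 3′ on the gene's strand, with the CHR core in capitals.
Cenpa (chr5:30666766-30666915, plus strand): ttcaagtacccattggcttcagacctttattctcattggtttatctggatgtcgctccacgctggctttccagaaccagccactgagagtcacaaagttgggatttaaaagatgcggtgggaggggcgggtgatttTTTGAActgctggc
Cdca8 (chr4:124936888-124937037, minus strand): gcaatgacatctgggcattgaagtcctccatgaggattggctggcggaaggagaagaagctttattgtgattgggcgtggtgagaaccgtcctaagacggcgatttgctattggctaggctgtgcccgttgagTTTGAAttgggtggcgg
Cdc20 (chr4:118437314-118437463, minus strand): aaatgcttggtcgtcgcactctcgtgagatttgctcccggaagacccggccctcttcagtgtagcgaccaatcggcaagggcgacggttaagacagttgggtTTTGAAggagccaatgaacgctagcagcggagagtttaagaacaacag
Spc25 (chr2:69206184-69206333, minus strand): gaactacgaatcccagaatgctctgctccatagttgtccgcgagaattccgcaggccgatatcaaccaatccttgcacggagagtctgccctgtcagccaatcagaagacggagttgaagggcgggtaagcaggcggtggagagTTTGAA
In all 4 the element was present once, in the orientation of the gene. Its first base lay 17 bases into the transcript in Cenpa, 14 in Cdca8, which encodes borealin, and 25 in Spc25, which encodes a subunit of the Ndc80 complex, counting the RefSeq start as base 1. In Cdc20 it began 18 bases upstream of the start. The printed stretches also held 2 CCAAT boxes in Cenpa, 4 in Cdca8, 2 in Cdc20 and 2 in Spc25.

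With the Dlx-positive G2 and M cells the cycle lists showed no call at all. None of the genes measured on the lists of early G2/M (15), late G2/M (14), mitotic kinases (21), kinetochore (25), spindle (30), mitotic exit (13), chromosome structure (22) and replication (30) was called in either direction. Over all genes 329 of 8526 were called higher in the members (3.86%) and 98 lower (1.15%). The median log2 ratios of these 8 lists were all slightly negative, from -0.09 for mitotic exit to -0.30 for chromosome structure, against 0.03 over all genes. Plk1 had 230 and 264 CPM in the 2 sets of members against 289 and 320 CPM, and Nusap1 428 and 421 CPM against 606 and 621 CPM.

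Genes of neuroblasts were where members stood lowest against the Dlx-positive cells: 11 of 15 measured outside the rule were called lower and 0 higher (median log2 ratio -0.99). Over all genes, 1.15% were called lower and 3.86% higher. Tubb3, the tubulin of young neurons, had 326 and 368 CPM against 791 and 801 CPM. Sox11, a transcription factor of neuroblasts, had 572 and 630 CPM against 1084 and 1074 CPM. For both genes, each set of members lay below each set of Dlx-positive cells.

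Besides Tubb3, the 10 lowest ratios included those of Ibsp, Mpped2, Tiam2, Nrxn3, Lmo3, Celf4, Bcl11b and Flrt2, several of them neuronal genes (Nrxn3 a synaptic adhesion protein, Celf4 an RNA-binding protein, Bcl11b a transcription factor of interneurons). Ibsp, a secreted protein best known from bone, had the lowest: 5.56 and 10.7 CPM against 44.8 and 52.8 CPM, 15 UMIs against 132. Its UMIs were present in 1.39% of members and 9.19% of Dlx-positive G2 and M cells.

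The members were not without neuroblast RNA. Tubb3 UMIs were present in 37.3% of members thinned to 2000 UMIs, below the 90.3% of non-mitotic Dlx-positive cells and above the 6.48% of cells without cycle UMIs. For Sox11 the thinned shares were 62.4%, 91.9% and 14.0%. Of 576 members, 4 held no UMI of the neuroblast genes outside the rule, and the median was 13 UMIs. Much of this was Stmn1, which is on the spindle list too. It held 1998 of 3643 such UMIs in members with a Dlx-side sum of 0, and 1949 of 4053 in those with a sum of 1. Against cells without cycle UMIs, 10 of 14 measured neuroblast genes were higher and 2 lower (median log2 ratio 0.99), with Stmn2 and Igfbpl1 the 2 lower ones. Over all genes, 14.3% were higher and 29.6% lower there. S-phase cells held more: 4 of 12 were lower in the members, Tubb3, Meis2, Cd24a and Elavl3, and 0 higher. They were also shallower (median 2742 UMIs against 3660.5 in the members), while the Dlx-side limit is a raw number of UMIs. The part of depth in this difference was not tested.

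Among cyclins and inhibitors of G1 the 2 D cyclins differed in opposite directions from the Dlx-positive cells. Ccnd1, cyclin D1, had 130 and 99.97 CPM in the members against 38.9 and 28.3 CPM. Ccnd2, cyclin D2, had 2462 and 2776 CPM against 4128 and 4451 CPM. Ccnd1 UMIs were present in 13.5% of thinned members (95% interval, 10.7 to 16.7%), 5.67% of Dlx-positive G2 and M cells and 11.3% of the 62 non-mitotic Dlx-positive cells (4.66 to 21.9%), so the share in members was not above that of the last group beyond counting error.

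Of inhibitors, Cdkn2d, p19, was lower in the members than in Dlx-positive cells (299 and 328 CPM against 500 and 600 CPM), and Cdkn1a, p21, was higher (461 and 482 CPM against 280 and 318 CPM). Of the 21 genes measured on this list 3 were higher (Ccnd1, Cdkn1a and Gas1) and 2 lower, beside 3.86% and 1.15% of all genes. Against S-phase cells Cdkn2d was instead higher (307 against 89.5 CPM over both sets) and Ccnd2 lower (2543 against 5417 CPM). There 4 of 20 genes were higher and 3 lower, beside 3.59% and 3.07% of all genes. Against cells without cycle UMIs 10 of 22 were higher and 3 lower, beside 14.3% and 29.6% of all genes. Cdk4, the kinase partner of the D cyclins, was among the 10 (1441 against 403 CPM) and was not called in the other comparisons.

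Stem cell and progenitor genes were called higher than in Dlx-positive G2 and M cells for 4 of 17 (median log2 ratio 0.06): Mfge8, Fabp7, Egfr and Rarres2. Over all genes the share called higher was 3.86%. Mfge8, a secreted phagocytosis factor found in adult stem cells, had 188 and 184 CPM against 78.7 and 77.3 CPM. Fabp7, a fatty acid binding protein of radial glia, had 598 and 652 CPM against 402 and 308 CPM. Egfr, the EGF receptor, had 39.6 and 62.5 CPM against 26.6 and 23.2 CPM. Rarres2 was not measured without the cells of other types described further on, with 9 UMIs in each group.

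Unthinned, Egfr UMIs were present in 14.9% of members and Olig1 or Olig2 UMIs in 10.1%. After thinning, the shares in members and in the 62 non-mitotic Dlx-positive cells were 8.43% and 6.45% for Egfr, 3.56% and 3.23% for Olig1, and 1.87% and 1.61% for Olig2. These shares in members were not above that background beyond counting error. Hes5, a Notch target of stem cells, was at 0 in all members, which allows up to 3 UMIs, and Sox2 was seen in 29.96% of thinned members against 32.3% of the non-mitotic Dlx-positive cells.

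Of the receptors and targets of growth factor signalling, 6 of 10 measured genes were called higher than in Dlx-positive cells and 0 lower (median log2 ratio 0.77): Egfr, Fgfr1, Fgfr3, Phlda1, Etv5 and Ier3. The shares over all genes were 3.86% higher and 1.15% lower. Fgfr1 had 35.8 and 28.6 CPM against 12.8 and 14.2 CPM. Etv5, a transcription factor induced by FGF and ERK, had 19.2 and 14.3 CPM against 4.43 and 2.58 CPM, from 39 and 11 UMIs. Against S-phase cells 0 of 8 were called, and the list's median of 0.59 turned negative in set 2.

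Astrocyte genes were called higher than in Dlx-positive cells for 8 of 19 and lower for 0 (median log2 ratio 0.50), and lower than in cells without cycle UMIs for 19 of 19 (median -2.41). Over all genes, 3.86% were higher in the first comparison and 29.6% lower in the second. Slc1a3, a glutamate transporter, had 177 and 162 CPM in the members, 98.4 and 90.2 CPM in Dlx-positive cells and 495 and 574 CPM in cells without cycle UMIs. Gfap, the astrocyte intermediate filament, had 671 and 491 CPM, 572 and 195 CPM, and 4755 and 4583 CPM in the same order. Mt3, a metallothionein of astrocytes, had 604 and 393 CPM, 478 and 194 CPM, and 3980 and 3461 CPM. The members lay close to the dividing groups and far from the cells without cycle UMIs.

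For several of these genes the share of cells with a UMI was near that of cells that should lack them. Gfap UMIs were present in 54.3% of thinned members and in 53.2% of non-mitotic Dlx-positive cells, which should lack it, and Slc1a3 in 24.3% and 24.2%. For Apoe the shares were 73.6% and 67.7%, for Aqp4 14.4% and 20.97%, and for Fabp7 55.8% and 50%. The 62 cells were few and shallower than the members (median 2212 against 3660.5 UMIs). Dlx-positive G2 and M cells, with a median of 3535 UMIs, had thinned shares of 47.3% for Gfap, 14.9% for Slc1a3, 9.82% for Aqp4 and 44.3% for Fabp7. The intervals of members overlapped those of the 62 cells for these 4 genes, and those of Dlx-positive G2 and M cells for Gfap and Aqp4 but not for Slc1a3 and Fabp7. How much of the members' astrocyte RNA was free RNA was not tested.

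Oligodendrocyte precursor genes outside the rule were called higher than in Dlx-positive cells for 4 of 9 (median log2 ratio 0.57): Cnp, Sox6, Olig1 and Lhfpl3. Olig1, a transcription factor of the oligodendrocyte lineage, had 16.7 and 37.5 CPM against 5.41 and 11.6 CPM, 48 UMIs against 20, with the background share given above. Against cells without cycle UMIs 8 of 12 were lower and 1, Sox8, higher, and against S-phase cells 0 of 8 were called. Of all genes, 29.6% were lower and 14.3% higher than in cells without cycle UMIs, and 3.86% higher than in Dlx-positive cells. Cells with 1 or more UMI of 4 precursor genes had been removed by the rule, which bears on this list.

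**Figure D3:**
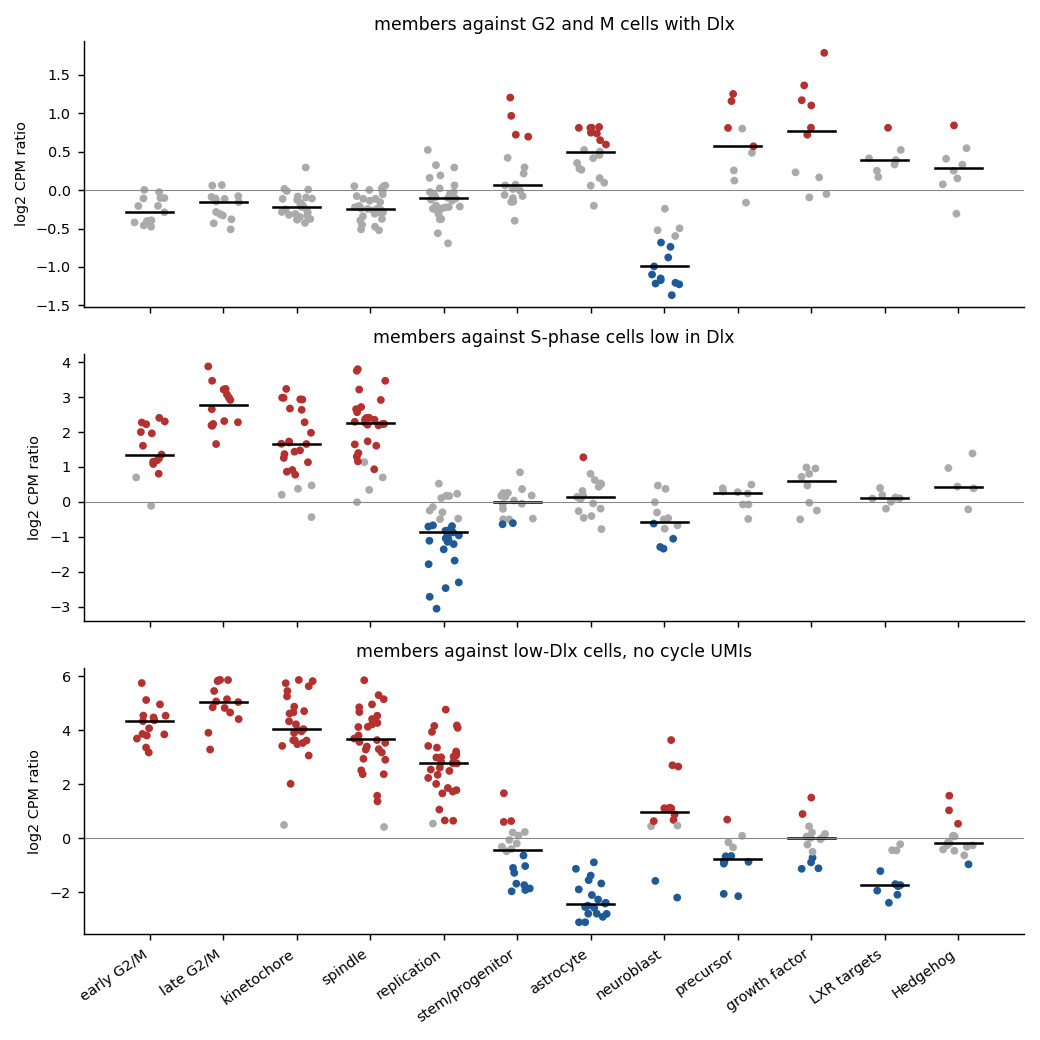
Log2 CPM ratio (with 5 CPM added to both levels) of each measured gene outside the rule, by list, for the members against each comparison group. Points are genes, red where called higher, blue where called lower and grey where neither; black lines are list medians. The cycle lists lie just under 0 against Dlx-positive cells and mostly above 1 against S-phase cells, and the neuroblast list changes sign from -0.99 to 0.99 between the top and bottom panels.

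The Hedgehog pathway, which acts through the Gli factors named in the series title, was thinly covered. Of 20 genes, 8 were measured against Dlx-positive cells with 1 called higher, Gas1, a Hedgehog co-receptor (16.1 CPM in both sets against 5.91 and 9.02 CPM). Against cells without cycle UMIs 3 of 15 were higher, Mycn, Gli3 and Cdon, and 1 lower, the transducer Smo (14.2 against 32.4 CPM over both sets), and against S-phase cells 0 of 5. Of all genes, 14.3% were higher and 29.6% lower than in cells without cycle UMIs, so the 3 of 15 lay near the share over all genes. Mycn had 28.4 and 16.1 CPM in the members against 5.32 and 4.56 CPM. Gli2 had 13 UMIs, Ptch1 27 and Gli1 1 in all members.

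Of the LXR receptors and their lipid efflux targets, 7 of 10 were lower than in cells without cycle UMIs (median log2 ratio -1.71) and 0 higher. Apoe, the lipoprotein of astrocytes, had 1647 and 655 CPM in the 2 sets of members and 8355 and 4435 CPM there, so set 2 was lower in both groups. Abca1, the cholesterol exporter, had 37.2 against 92.5 CPM over both sets, and Smpdl3a 35.8 against 130 CPM. Against Dlx-positive cells 1 of 7 was higher, Pltp, and against S-phase cells 0 of 7. For cholesterol synthesis 3 of 23 were higher and 5 lower than in cells without cycle UMIs, with 0 of 18 and 0 of 14 in the other comparisons. Both counts lay under the shares over all genes there (14.3% and 29.6%). The 3 higher were Fdps, which makes farnesyl diphosphate (98.7 against 64.0 CPM), Acat2 (80.3 against 34.3 CPM) and Ebp.

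On the Notch and BMP list, 1 of 10 was higher than in Dlx-positive cells (Id3, 123 and 64.3 CPM against 81.2 and 19.3 CPM), 1 of 9 lower than in S-phase cells (Mfng), and 3 of 16 higher and 8 lower than in cells without cycle UMIs, where 14.3% of all genes were higher and 29.6% lower. Hes6, a Notch-pathway factor of dividing progenitors, was one of the 3 (491 and 295 CPM against 58.0 CPM over both sets). Among ependymal genes 7 of 8 were lower than in cells without cycle UMIs; Foxj1, the master factor of motile cilia, had 16.1 against 95.1 CPM, and the summed level of the list was 55.6 CPM in the members and 303 CPM there.

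Against cells without cycle UMIs, 1734 of 12086 genes were called higher in the members (14.3%) and 3576 lower (29.6%). The median log2 ratio over all genes was -0.24, and with scaling by the median ratio the counts were 2715 higher and 2317 lower, so the share of higher among called genes went from 32.7% to 54.0%. All 15 early G2/M, 14 late G2/M, 21 kinase and 22 chromosome structure genes were higher, with 24 of 25 kinetochore, 29 of 30 spindle and 10 of 13 mitotic exit genes. The exclusion of any UMI of 8 cycle genes from that group fixes much of this.

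The largest ratios there were those of Arhgef39, Hmmr, Cenpe, Casc5, Esco2, Ndc80, Hist1h1b, Aurkb, Fam64a and Ska1; Hmmr stood at 370 against 1.49 CPM. The smallest were those of Ccdc3, Lcat, Cfap44, C230037L18Rik, Rgs6, Mxra8, Capsl, Lrrc74b, Garnl3 and Itga2b, each with 5 or fewer UMIs in the members. Dbi, which binds acyl-CoA esters and is abundant in progenitors and glia, had 4713 and 4654 CPM in the 2 sets of members against 16725 and 17643 CPM. Of stem cell genes 3 of 20 were higher, Pax6 and Sox1 among them, and 9 lower, beside 14.3% and 29.6% of all genes. Vim, the intermediate filament vimentin, was among the 9, at 1122 and 875 CPM against 4113 and 4166 CPM.

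A few members carried RNA of other cell types. Fibroblast and mural genes summed to 678 CPM in the members (849 in set 1, 186 in set 2; 12 of 12 markers seen) and to 53.1 CPM in Dlx-positive cells, and microglia genes to 205 CPM (271 and 12.5; 9 of 10 seen, Ptprc at 0) against 6.05 CPM. Of the fibroblast and mural UMIs, 97.2% lay in 21 members with 5 or more of them, 19 in set 1 and 2 in set 2, with a median of 5401 UMIs per cell. Of the microglia UMIs, 94.6% lay in 2 members, both in set 1, 1 of them with 259. Endothelial genes summed to 11.9 CPM with Cldn5, Kdr and Ly6c1 at 0, choroid plexus genes to 4.13 CPM and erythroid genes to 0.459 CPM.

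Those 23 cells set the top of the ranking against Dlx-positive cells. The 10 largest ratios were those of Tyrobp, Col1a1, C1qc, Lyz2, Col1a2, Dcn, Col3a1, Spp1, H19 and Fn1, genes of microglia or matrix except for H19. Col1a1, a collagen chain, had 247 and 71.4 CPM in the members against 9.35 and 0 CPM. Without the cells, as an alternative added after seeing the data, Col1a1 was left with 3 UMIs in the members and 8 in the Dlx-positive cells, and 215 genes were called higher in place of 329, 195 of them shared.

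In the remaining 553 members the largest ratios to Dlx-positive cells, among genes with at least 100 UMIs in the members, were those of Ccnd1 (3.57-fold), H19, Ptgds, Mfge8, Tagln2, Ramp1, Lgals3, Zcchc24, Ttyh1 and Mmd2. A further 12 called genes with fewer UMIs, Etv5 and Wnt7b among them, had larger ratios than Ccnd1. H19, an imprinted long noncoding RNA, had 56.9 CPM against 21.1 CPM, and Ptgds, a prostaglandin synthase, 108 against 40.4 CPM. The neuroblast list still had 11 of 15 lower (median log2 ratio -0.90), astrocyte genes 9 of 18 higher (0.54), growth factor genes 5 of 9 higher (0.73), and the 8 cycle lists no call. Pltp and Id3, the lone called genes of the LXR and the Notch and BMP lists, were no longer called, and Ier3 and Rarres2 had too few UMIs to be compared, which left 3 of 16 stem cell genes higher. Genes called lower went from 98 to 83, of which 76 were shared.

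Ordering the G2 and M cells by their Dlx-side sum, without cells of other types, showed a gradient inside the members as well as beyond them. The sum is part of the rule, and the other genes were not. Tubb3 stood at 234 CPM in 298 cells with a sum of 0, at 506 CPM in 255 cells with a sum of 1, at 616 CPM in 247 cells with a sum of 2, at 789 CPM in 324 cells with 3 to 4, and at 1018 CPM in 189 cells with 5 or more. Sox11 stood at 499, 767, 909, 1143 and 1196 CPM in the same order, and Ccnd2 at 2132, 3350, 3728, 4306 and 4688 CPM.

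Ccnd1 ran the other way, at 170, 79.4, 37.6, 41.9 and 24.8 CPM. Mfge8 stood at 255, 121, 91.9, 77.8 and 59.3 CPM, and Wnt7b, a Wnt ligand, at 53.6, 22.8, 16.6, 8.55 and 4.14 CPM. For these 3 genes and for Tubb3, Sox11 and Ccnd2 the intervals of members with a sum of 0 and a sum of 1 did not overlap. Members with a sum of 1 thus lay between members with a sum of 0 and the Dlx-positive cells in all 6. Wnt7b was singled out after its values were seen.

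Ibsp was low in both kinds of members (7.14 and 7.61 CPM, from 8 and 7 UMIs) and stood at 18.8, 44.4 and 85.5 CPM in the 3 groups beyond them. Plk1 stood at 249, 242, 294, 312 and 280 CPM, and Nusap1 at 421, 472, 540, 652 and 630 CPM. Spindle genes summed to 12984 CPM at a sum of 0 and 17066 CPM at 5 or more. Part of that rise was Stmn1, also a neuroblast list gene, which went from 1702 to 2755 CPM. Median depth was 3691, 3465, 3558, 3515.5 and 3555 UMIs, and the median mitotic sum 15, 15, 17, 17.5 and 23. The mitotic sum thus went up together with the Dlx-side sum; its part in these gradients was not tested.

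**Figure D4:**
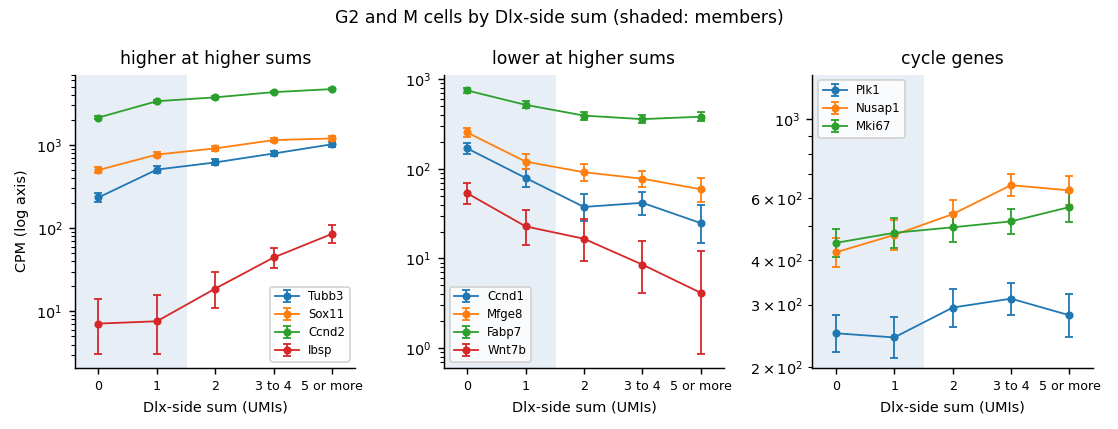
Level in CPM, on log axes, of 11 genes in G2 and M cells grouped by their Dlx-side sum, without cells of the fibroblast or microglia lists; bars are 95% counting intervals and the shaded part holds the members. Tubb3 goes from 234 to 1018 CPM across the groups and Ccnd1 from 170 to 24.8 CPM, Plk1 lies between 242 and 312 CPM, and Nusap1 goes from 421 to 630 CPM.

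Members also differed among themselves in their balance of early and late G2/M RNA. In 534 members thinned to 2000 UMIs, the late share was the part of late G2/M UMIs among early and late G2/M UMIs; it ranged from 10.5% to 81.0%, and the cells were split into 4 equal parts by it (134, 134, 133 and 133 cells, with median late shares of 28.9, 43.5, 52.5 and 63.8%). This is a range with no gap and the 4 parts are not types. The genes of both lists fixed the order, and they were left out of every sum and gene given here.

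Replication genes summed to 5877, 4731, 3447 and 2293 CPM from the lowest to the highest part. Genes whose symbols begin with Hist1, most of them histones made in S phase, summed to 1384, 1149, 594 and 293 CPM. Mitotic exit genes summed to 1556, 1776, 1808 and 1632 CPM, with no steady direction. Kinetochore genes summed to 3948, 5272, 5553 and 5218 CPM and spindle genes to 9437, 11254, 12308 and 11835 CPM. Slbp, which binds histone messenger RNA and is removed after S phase, stood at 526, 407, 147 and 90.2 CPM. The lowest part thus held the most RNA of S-phase genes. Whether it included cells still in S phase was not tested.

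Genes on neither list with the lowest levels in the last part relative to the first included Hist1h1b, Hist1h1e, Slbp, Lig1, Prim1, Tyms, Rpa2, Tk1, Tipin, Dnmt1 and Rfc1, nearly all of replication; they were named after their values were seen. With the highest were Acta2, Tuba1c, Col1a1, Arl6ip1, Col1a2, Nde1, Racgap1, Tpm1, Cby1, Serpinh1, Btg2 and Cks2. Cells of other types numbered 4, 4, 1 and 14 in the 4 parts, most of them in the last part. Without them Acta2 had 2 UMIs in the first part and 3 in the last (3 and 79 with them), Col1a1 1 and 0 (23 and 106), Col1a2 1 and 0 (14 and 59), Tpm1 24 and 20 (26 and 68) and Serpinh1 13 and 14 (20 and 52). Tuba1c had 10 and 66 UMIs without them, Arl6ip1 137 and 520, and Racgap1 27 and 70. Over all thinned members, Arl6ip1, a membrane protein of the endoplasmic reticulum, stood at 526, 1153, 1643 and 2102 CPM and Tuba1c at 41.0, 172, 233 and 286 CPM. Racgap1, which acts on the cleavage furrow, stood at 101, 183, 289 and 289 CPM.

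Neuroblast genes summed to 4105, 3802, 3797 and 3436 CPM, astrocyte genes to 3653, 3377, 3500 and 3733 CPM, and stem cell genes to 6858, 6810, 7493 and 8263 CPM. Precursor genes summed to 511, 534, 628 and 744 CPM, from 137 UMIs in the first part and 198 in the last, and growth factor genes to 190, 246, 195 and 286 CPM, from 51 and 76 UMIs. Members with a Dlx-side sum of 0 made up 44.0, 54.5, 57.1 and 69.9% of the 4 parts. Set 1 made up 73.9, 71.6, 73.7 and 74.4%, called doublets 11.9, 9.70, 9.77 and 8.27%, and the median depth before thinning was 3688, 3808, 3871 and 3558 UMIs.

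**Figure D5:**
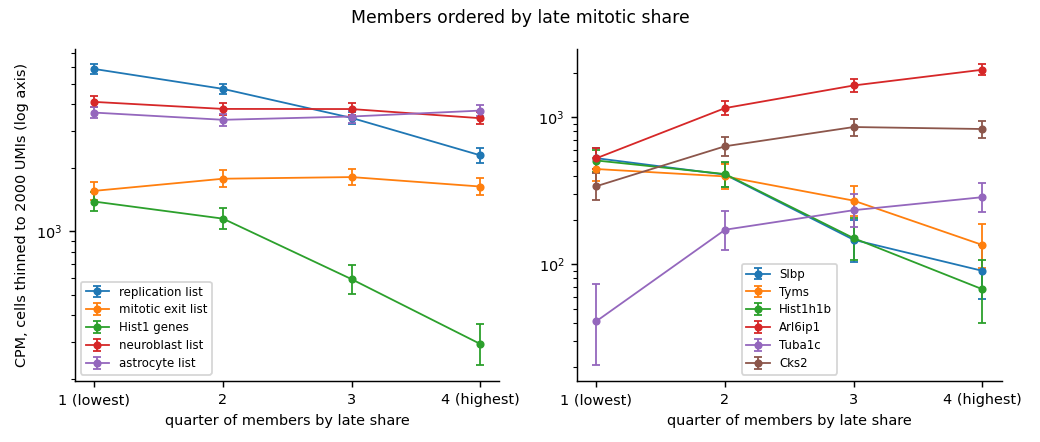
Level in CPM, on log axes, in 4 equal parts of the 534 thinned members ordered by late share; bars are 95% counting intervals. On the left are sums over gene lists and on the right single genes; replication genes go from 5877 to 2293 CPM and Arl6ip1 from 526 to 2102 CPM, and the mitotic exit sum, without genes of the early and late lists, lies between 1556 and 1808 CPM.

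The 10 genes with the largest Fano factor (variance over mean of the UMIs in thinned members, among 1602 genes with a mean of at least 0.2) were Acta2 (18.8), Col1a1 (9.29), Tmsb4x (7.90), Malat1 (6.45), Fth1 (5.17), Ftl1 (5.16), Ctsd (4.92), mt-Co3 (4.81), mt-Co1 (4.80) and Dbi (4.68), against a median of 1.06. Without the cells of other types Acta2 went to 1.27, Col1a1 to 1.00, Ftl1 to 1.33, Ctsd to 1.13 and Fth1 to 2.26, while Tmsb4x (7.68), Malat1 (6.42), mt-Co3 (4.86), mt-Co1 (4.79) and Dbi (4.57) stayed high. Tmsb4x, an actin-binding peptide, had a UMI in every thinned member and up to 102 in a cell. Ccnd2 followed with 4.62 (4.46 without those cells).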

How the data were processed

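UMI counts per gene and cell were deposited by the authors as 1 matrix of 28692 genes and 14685 barcodes (41462326 UMIs) that pools both libraries; Cell Ranger 2.1.1 and the mm10 genome are named in the submitters' processing notes. The title gives each library's group, though the control's treatment text also mentions 20HC. Removed were 635 barcodes with fewer than 500 genes and 912 with over 10% mitochondrial UMIs, 1407 in all. UMIs were summed per group and barcode set and turned into CPM with exact Poisson intervals; log2 ratios used CPM plus 5. Shares have Clopper-Pearson intervals, which like the others cover counting error only. With 1 pooled sample no p-value was computed. Scrublet (scanpy 1.11.5) called 4.02% of set 1 and 1.58% of set 2 doublets, against 7.90% and 2.73% expected at 0.8% per 1000 cells.

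The members, lists and rules were chosen with earlier results of these data known. Named genes were, per comparison, the 10 highest and 10 lowest CPM ratios among called genes with at least 100 UMIs in the higher group (counts under 3 raised to 3), the 3 genes of each list with the most UMIs in the members, called Hedgehog genes and the 10 largest Fano factors; other genes were named after their values were seen. Promoter positions are RefSeq's in GRCm38.p6. Alternatives changed the cell filter, thresholds, doublets, depth, scaling, UMI minimum and barcode set. The comparison was tested on simulated counts drawn from the means of the groups. Against Dlx-positive, S-phase and no-cycle cells it found 100, 78 and 94% of genes made 3-fold higher. Of genes made 3-fold lower it found 74, 46 and 68%. Unchanged genes were called for 21 of 8324, 32 of 6545 and 57 of 11888. Counts drawn from group means carry no differences among single cells, such as the few cells of other types. These numbers therefore cover counting error only and are no error rate for the calls in the real cells. Python 3.11.15, numpy 2.4.6, scipy 1.17.1, pandas 2.3.3 and matplotlib 3.10.9 were used. Some genes that these rules select are not reported here.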

Additional observations from a re-analysis of the deposited data

Results flagged for a closer look

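Of the 1407 barcodes removed before the analysis, 4 met the UMI conditions of the members, which is 0.284% (exact Clopper-Pearson 95% interval, 0.0775 to 0.726%) against the 0.213% that a count of 0 allows. They drew attention because they lay in data the comparisons do not use, though the 0.213% is inside the interval. Among kept cells the share was 4.34%, so removed barcodes met the conditions less often. The mitotic condition is a raw number of UMIs, and 635 barcodes were removed with fewer than 500 genes. The part of depth in the lower share was not tested. All 4 had over 10% mitochondrial UMIs and none had fewer than 500 genes.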

How the results depend on the processing

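The share of kept cells that were members (4.34%) was 3.95% with no cell filter and 5.65% with a stricter one. It was 2.91% at a mitotic sum of 12 or more, 6.21% at 5 or more and 2.40% at a Dlx sum of 0. At 20 mitotic UMIs per 10000 it was 5.31%. Among the 10795 kept cells with 2000 or more UMIs it was 4.95%. There the sums before thinning chose the members, and the rule was not applied again to thinned counts. Genes higher than in Dlx-positive cells (329) were 153 in thinned cells, 810 by the mean of per-cell CPM, 144 in barcode set 2 alone and 215 without cells of other types; genes lower (98) were 345 by the per-cell mean and 56 in set 2. Against S-phase cells, genes higher (244) were 160 at a Dlx sum of 0, 1046 by the per-cell mean and 127 in set 2, and genes lower (209) were 122, 711 and 71, with 124 in thinned cells. Against cells without cycle UMIs, median-ratio scaling gave 2715 higher and 2317 lower, and set 2 alone 2046 lower. The cause of these moves was not tested.

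Without cells of other types, these log2 ratios changed sign: the fibroblast and mural list (-0.18), Col1a1 (-0.28), Col3a1 (-0.10) and Dcn (-0.037) against Dlx-positive cells, Acta2 (-0.68) and C1qc (-0.45) against S-phase cells, and Col1a1 (-0.33) against cells without cycle UMIs. Against S-phase cells C1qc was also -0.59 at 20 mitotic UMIs per 10000, the fibroblast and mural list -1.21 in set 2, and the growth factor list -0.39 in thinned cells and -0.42 in set 2. Leaving out cells of other types and the threshold per 10000 UMIs were chosen after seeing the data. No paired analysis was possible because the matrix holds 1 library per treatment and its barcodes carry no replicate number. Depth limits genes under 30 UMIs, which were not compared, and the 123 S-phase cells.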
